A study of Mus musculus with 4 samples.

Results

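Aminoacyl-tRNA synthetases join each amino acid to its transfer RNA, the step that supplies charged tRNA to the ribosome. Animal cells run this step in the cytosol, for proteins made from nuclear genes, and again in the mitochondrial matrix, for the few proteins encoded by mitochondrial DNA. Most amino acids are served by a separate nuclear gene in each compartment, and by convention the mitochondrial gene carries the suffix 2. In secretory cells such as beta cells, which make large amounts of insulin, several cytosolic synthetase genes are known targets of ATF4, the transcription factor of the integrated stress response. The genes described here are 36 synthetase genes, chosen by symbol from a table of 39170 gene rows: 20 form the cytosolic set and 16, with symbols ending in 2, the mitochondrial set. All 36 had a row, a status of OK in every library and at least 1 FPKM (fragment counts divided by transcript length and by the library's mapped fragments) in some library, so none was lost to the filter on low values.

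Total RNA was sequenced from insulin-positive pancreatic cells of MIP-GFP mice, male C57BL/6 animals of 6 to 8 weeks in which an insulin promoter drives green fluorescent protein. Glut2, a glucose transporter whose gene is Slc2a2, divided the cells into a low gate (Glut2L) and a high gate (Glut2H), from mice injected with streptozotocin (STZ) at 200 mg/kg and from mice injected with vehicle. STZ is a toxin that enters beta cells through Glut2, and diabetes was established 4 days after injection. The groups are Glut2L STZ, Glut2H STZ, Glut2L control and Glut2H control, with 3 mice per group in the design and 1 library each. The sources used here do not say whether RNA of those mice was pooled. With 1 library per group there is no spread between replicates, no test was possible, and the comparisons describe the libraries themselves. The number of reads behind each FPKM is unknown, and in sorted populations fewer cells of a type and less RNA per cell cannot be told apart.

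The Slc2a2 transcript ran against the gate labels, at 33.7 FPKM in Glut2L STZ, 10.8 in Glut2H STZ, 41.0 in Glut2L control and 8.74 in Glut2H control, so a direction between gates holds only for libraries as labelled. The beta cell markers were higher in the libraries labelled Glut2L (18 of 20 at least 2-fold higher in each pair, summing to 210236 and 339021 FPKM in Glut2L STZ and Glut2L control, against 67526 and 71422 in Glut2H STZ and Glut2H control). Immune markers ran the other way, summing to 188 and 136 FPKM in Glut2L STZ and Glut2L control, against 4662 and 4224 in Glut2H STZ and Glut2H control; of 19 in the table the T cell marker Cd3e was listed at 0 in both Glut2L libraries. Endothelial markers summed to 17.5 and 40.5 FPKM in Glut2L STZ and Glut2L control, against 299.6 and 349 in Glut2H STZ and Glut2H control, and stromal markers to 28.6 and 68.1, against 877 and 1018. In STZ mice 17 of 18 immune, 10 of 10 endothelial and 14 of 14 stromal markers measured were at least 2-fold lower in Glut2L than in Glut2H, with Tie1 listed at 0 in Glut2L STZ; in control mice 18 of 18, 10 of 11 and 14 of 14 were, with Thy1 listed at 0 in Glut2L control. Acinar markers summed to 425 and 3691 FPKM in Glut2L STZ and Glut2L control, against 4929 and 4686 in Glut2H STZ and Glut2H control, with Amy2a5 listed at 0 in all 4, Rbpjl in both STZ libraries and Ptf1a in both Glut2L libraries; 17 of 18 measured were at least 2-fold lower in Glut2L than in Glut2H in STZ mice and 1 of 17 in control mice. Over all genes measured, 22.9% in STZ mice and 19.7% in control mice were at least 2-fold higher in Glut2L. In turn 17.8% and 18.5% were at least 2-fold lower there. The part of these cell types in any difference between the gates described here was not tested.

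Cytosolic synthetase RNA was far more abundant than mitochondrial synthetase RNA in every library. The cytosolic median was 59.4 FPKM in Glut2L STZ, 35.5 in Glut2H STZ, 65.8 in Glut2L control and 45.8 in Glut2H control. The mitochondrial median was 4.54 FPKM in Glut2L STZ, 5.50 in Glut2H STZ, 5.72 in Glut2L control and 3.30 in Glut2H control. The ratio of the medians within a library, which does not depend on how libraries are scaled against each other, was therefore 13.1 in Glut2L STZ, 6.45 in Glut2H STZ, 11.5 in Glut2L control and 13.9 in Glut2H control. The STZ library labelled Glut2H had the lowest ratio of the 4, and it kept that place when Lars2 was left out (11.8 in Glut2L STZ, 7.41 in Glut2H STZ, 14.5 in Glut2L control and 14.4 in Glut2H control). The order depended on the summary: by summed FPKM the ratio was 15.002 in Glut2L STZ, 9.53 in Glut2H STZ, 10.8 in Glut2L control and 3.80 in Glut2H control, the lowest then being Glut2H control. The only member value below 1 FPKM was that of Vars2 in Glut2H control.

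**Figure D1:**
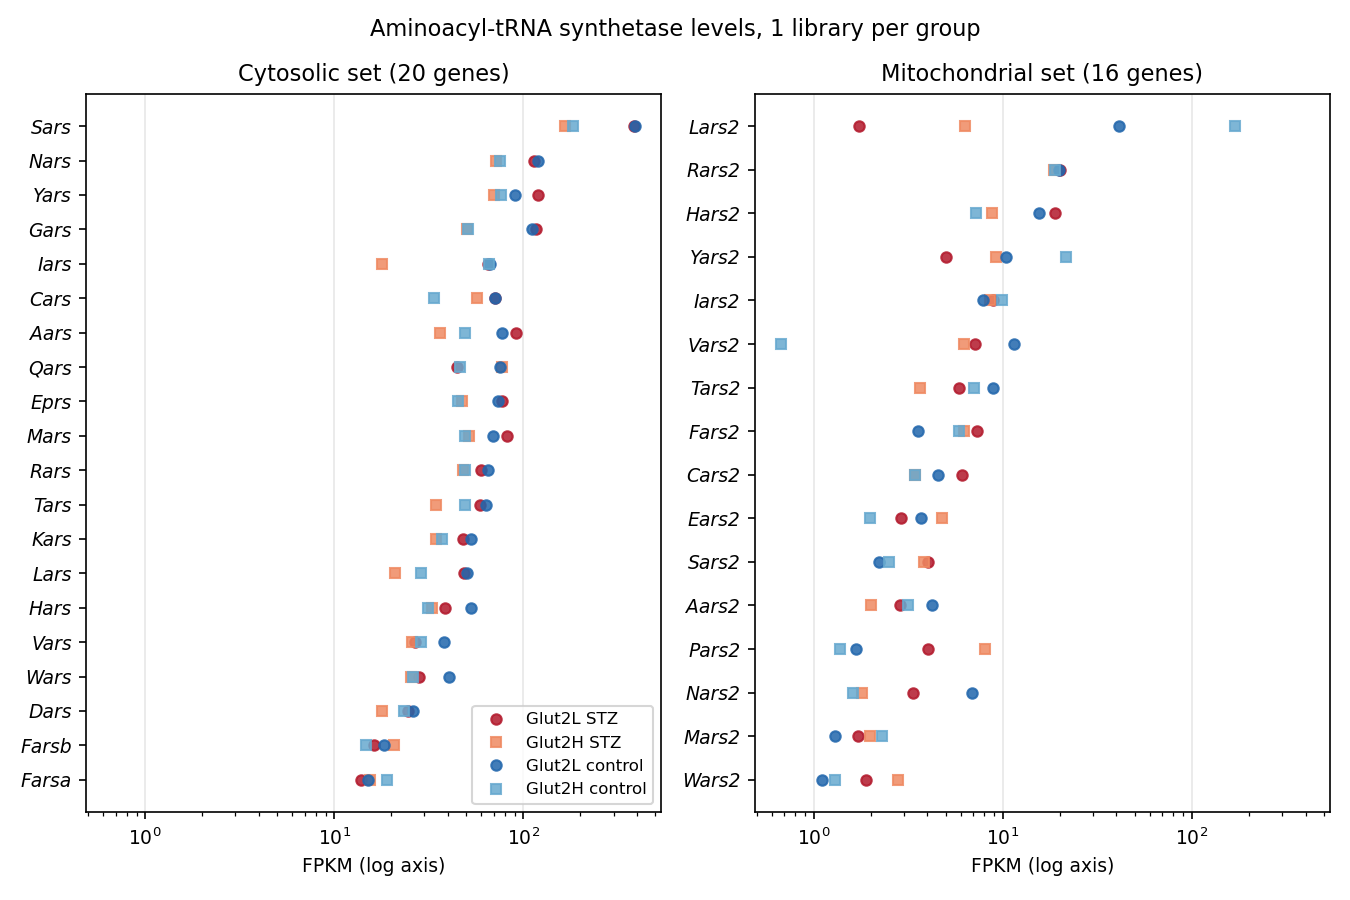
FPKM (log axis) of each synthetase gene in the 4 libraries, with 1 point per library, the cytosolic set on the left and the mitochondrial set on the right, ordered by the median over libraries. Sars stands above the other cytosolic genes, and Lars2 spans 1.74 to 169 FPKM while most mitochondrial genes lie below 10.

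Sars, the cytosolic seryl-tRNA synthetase (ENSMUSG00000068739, GRCm38 chromosome 3, 108424865 to 108445209) was the most abundant member in every library. It had 384 FPKM in Glut2L STZ, 166 in Glut2H STZ, 391 in Glut2L control and 182 in Glut2H control, and so made up 25.1%, 18.0%, 24.9% and 18.5% of the summed cytosolic FPKM of those libraries. Near the other end stood Farsa and Farsb, the alpha and beta subunits of the phenylalanyl enzyme, the only cytosolic synthetase built of different chains. In Glut2H STZ, Dars (17.9 FPKM) and Iars (18.0) were lower than Farsb. Farsa had 13.8 FPKM in Glut2L STZ, 15.4 in Glut2H STZ, 15.2 in Glut2L control and 19.0 in Glut2H control. Farsb had 16.2 FPKM in Glut2L STZ, 20.7 in Glut2H STZ, 18.3 in Glut2L control and 14.7 in Glut2H control. The subunits thus lay close to each other in level and showed no common order between the libraries. In the mitochondrial set Rars2, the arginyl enzyme, was the steadiest, at 20.1 FPKM in Glut2L STZ, 18.8 in Glut2H STZ, 19.9 in Glut2L control and 19.0 in Glut2H control.

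For 13 amino acids the table holds a cytosolic gene and its mitochondrial counterpart, and the ratio of the pair can be read within each library. The cytosolic gene was higher in 13 of 13 pairs in Glut2L STZ, Glut2H STZ and Glut2L control, and in 12 of 13 in Glut2H control, where the exception was Lars/Lars2. The median ratio was 14.8 in Glut2L STZ, 9.11 in Glut2H STZ, 8.64 in Glut2L control and 9.88 in Glut2H control. Sars/Sars2 was the widest pair in all 4 libraries, at 95.5 in Glut2L STZ, 43.2 in Glut2H STZ, 175 in Glut2L control and 73.0 in Glut2H control. Between the gates, the ratio in the Glut2L-labelled library exceeded that in the Glut2H-labelled one for 10 of 13 pairs in STZ mice and 10 of 13 in control mice, by a median of 0.52 and 0.34 on the log2 scale. The narrowest pairs besides Lars/Lars2 included Rars/Rars2, at 2.97 in Glut2L STZ, 2.56 in Glut2H STZ, 3.28 in Glut2L control and 2.58 in Glut2H control. The histidyl pair Hars/Hars2 had ratios of 2.05 in Glut2L STZ, 3.72 in Glut2H STZ, 3.39 in Glut2L control and 4.36 in Glut2H control. Those genes lie head to head on opposite strands and overlap at their starts. The library kit kept strand, but the sources used here do not say whether counting used it, so reads of the overlap may have been shared between them.

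**Figure D2:**
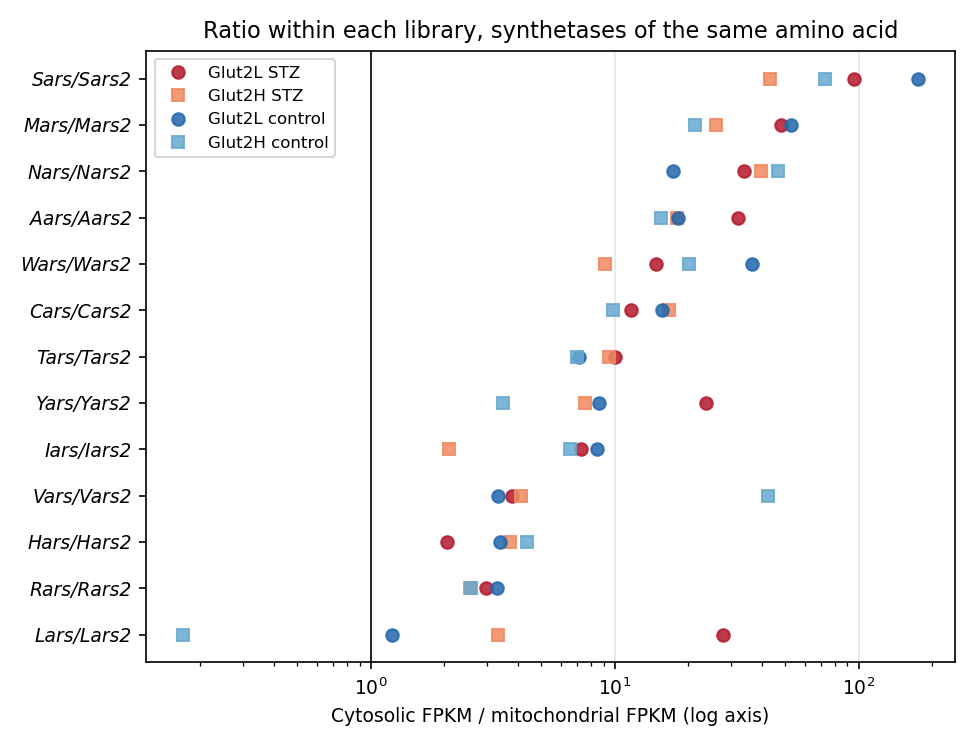
Ratio of the cytosolic to the mitochondrial FPKM (log axis) for the 13 amino acids served by a gene in each set, with 1 point per library; the vertical line marks a ratio of 1. The Lars/Lars2 pair runs between 27.8 in Glut2L STZ and 0.170 in Glut2H control, while Rars/Rars2 stays between 2.56 and 3.28.

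Not every amino acid follows this scheme. Gars, the glycyl enzyme (ENSMUSG00000029777, chromosome 6, 55038007 to 55079500), and Kars, the lysyl enzyme, each serve both compartments from the same gene. Gars had 117 FPKM in Glut2L STZ, 50.1 in Glut2H STZ, 111 in Glut2L control and 51.1 in Glut2H control. Kars had 48.1 FPKM in Glut2L STZ, 34.4 in Glut2H STZ, 53.1 in Glut2L control and 37.3 in Glut2H control. Both genes were higher in each library labelled Glut2L than in either library labelled Glut2H, as the purely cytosolic genes mostly were. Eprs encodes a fused glutamyl and prolyl enzyme, with Ears2 and Pars2 as separate genes in mitochondria. Eprs had 77.2 FPKM in Glut2L STZ, 47.5 in Glut2H STZ, 73.4 in Glut2L control and 45.3 in Glut2H control, against at most 8.09 for Pars2 and 4.79 for Ears2 in any library. Mitochondria have no glutaminyl enzyme of their own: Ears2 first loads glutamate, which an amidotransferase then converts.

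Setting gate against gate compares the libraries labelled Glut2L with those labelled Glut2H. Most cytosolic synthetase genes were higher in the libraries labelled Glut2L, by less than 2-fold, while the mitochondrial genes were divided. On the log2 scale of FPKM plus 1, the cytosolic median difference, Glut2L minus Glut2H, was 0.56 in STZ mice and 0.56 in control mice, beside 0.23 and 0.15 over all genes measured (15839 and 16234). The mitochondrial median was 0.08 in STZ mice and 0.12 in control mice. Over 6 genes of cytosolic translation elongation the median was 0.47 in STZ mice and 0.53 in control mice, so a median of like size was not limited to synthetases. Of those 6 genes, 4 lay above 0 in the STZ pair and 6 in the control pair, and 0 were at least 2-fold different in either. With all genes centred on 0, the cytosolic medians became 0.33 and 0.41 and the mitochondrial ones -0.16 and -0.03. With libraries set to an equal FPKM sum, which moves the median of all genes to 1.18 and 0.87, the cytosolic medians were 1.67 and 1.36 and the mitochondrial ones 1.11 and 0.77. Of the cytosolic genes, 17 of 20 lay above 0 in the STZ pair and 19 of 20 in the control pair, where 58.7% and 55.9% of all genes did, and 17 lay above 0 in both pairs, beside 43.3% of all genes. Of the mitochondrial genes, 10 of 16 lay above 0 in the STZ pair, 9 in the control pair and 7 in both. Both Glut2L libraries exceeded both Glut2H libraries for 15 of 20 cytosolic and 5 of 16 mitochondrial genes, beside 37.3% of all genes.

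The counts of cytosolic genes at least 2-fold higher were close to the background of these libraries. In the STZ pair 5 of 20 cytosolic genes exceeded 2-fold in favour of the Glut2L-labelled library, where 22.9% of all genes did, and 0 were at least 2-fold lower there, where 17.8% were (40.7% in either direction). In the control pair 3 of 20 were at least 2-fold higher, beside 19.7% of all genes, and 0 were at least 2-fold lower, beside 18.5%. In the mitochondrial set 1 of 16 was higher and 1 lower in the STZ pair, and 3 higher and 1 lower in the control pair. The deposited intervals overlapped between the gates for all 36 genes in both pairs, where 5.13% of all genes in STZ mice and 4.71% in control mice were at least 2-fold different with intervals that did not overlap.

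Among cytosolic genes the widest differences were those of Sars and Gars, given above, together with Aars, Iars, Lars and Cars. Sars differed by 1.21 (log2) in the STZ pair and 1.10 in the control pair, and Gars by 1.21 and 1.10. Aars, the alanyl enzyme (ENSMUSG00000031960, chromosome 8, 111033144 to 111057664), had 92.0 FPKM in Glut2L STZ, 36.3 in Glut2H STZ, 77.0 in Glut2L control and 49.2 in Glut2H control, log2 differences of 1.32 and 0.63. Lars, the cytosolic leucyl enzyme, which also acts as a leucine sensor for mTORC1, had 48.4 FPKM in Glut2L STZ, 20.97 in Glut2H STZ, 50.1 in Glut2L control and 28.7 in Glut2H control, log2 differences of 1.17 and 0.78. For both Aars and Lars the FPKM of each Glut2L library exceeded that of either Glut2H library, while the deposited intervals overlapped. Cars, the cysteinyl enzyme, had 70.9 FPKM in Glut2L STZ, 57.0 in Glut2H STZ, 71.2 in Glut2L control and 33.8 in Glut2H control, so its gate difference was 0.31 in STZ mice and 1.05 in control mice.

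Iars and Qars departed from this pattern in a single library or pair. Iars, the isoleucyl enzyme (ENSMUSG00000037851, chromosome 13, 49682100 to 49734267), had 64.8 FPKM in Glut2L STZ, 18.0 in Glut2H STZ, 66.4 in Glut2L control and 65.5 in Glut2H control. The other values being nearly equal, the Glut2H STZ library alone set both the gate difference of 1.79 in STZ mice and the STZ difference of -1.81 in Glut2H; its deposited interval there ran between 5.84 and 30.1 FPKM, and that of Glut2H control between 14.3 and 117. Qars, the glutaminyl enzyme (ENSMUSG00000032604, chromosome 9, 108507706 to 108515941), had 44.5 FPKM in Glut2L STZ, 76.7 in Glut2H STZ, 75.5 in Glut2L control and 46.2 in Glut2H control. The gates therefore stood in opposite order in STZ mice (-0.77) and in control mice (0.70). Farsa was the only cytosolic gene lower in the library labelled Glut2L in both pairs, by -0.15 and -0.31.

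**Figure D3:**
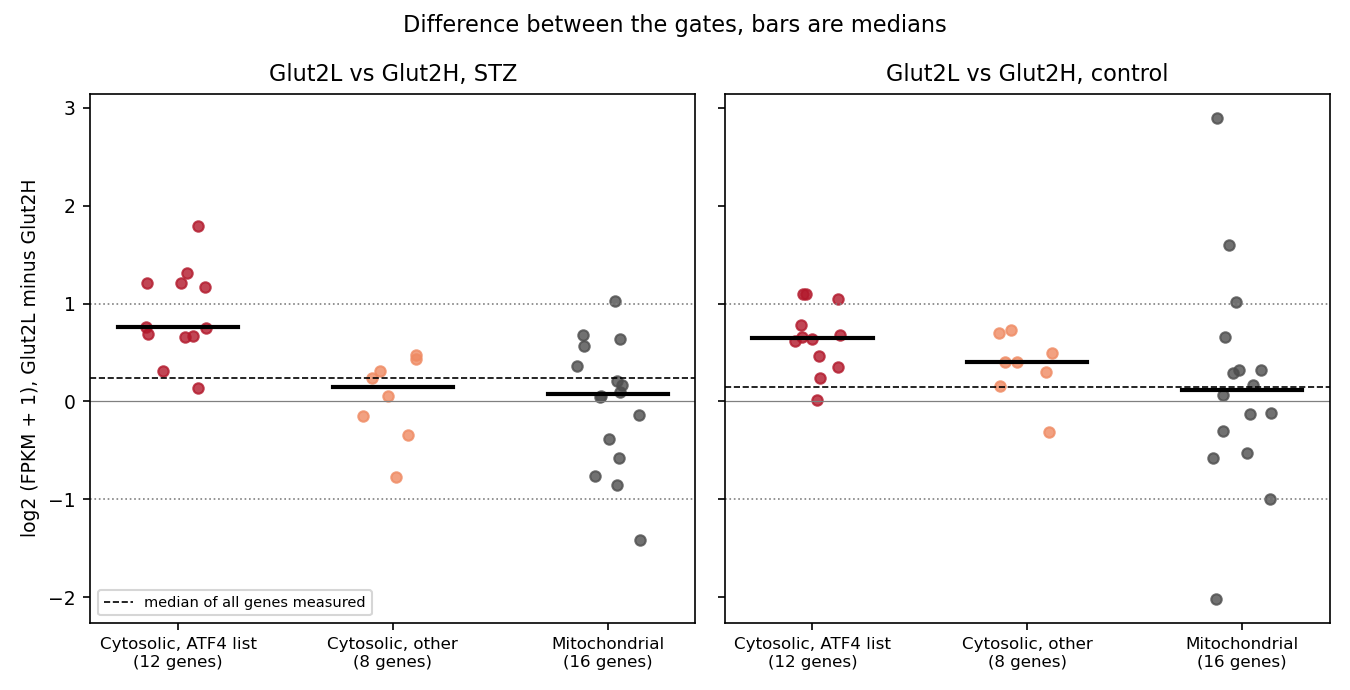
Difference between the gates, log2 of FPKM plus 1, Glut2L minus Glut2H, for each synthetase gene in STZ mice (left) and control mice (right), split into cytosolic genes on a list of frequently reported ATF4 targets, other cytosolic genes and mitochondrial genes. Bars are medians, the dashed line is the median of all genes measured (0.23 and 0.15), and dotted lines mark 2-fold; all 12 genes of the ATF4 list lie above 0 in both panels.

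Cytosolic genes were also read by a list of 12 that are often reported as ATF4 targets. It was written from general knowledge but with earlier results of these data known. How the list divides the genes is therefore a description and not independent support. All 12 were above 0 in both pairs (Iars by 0.02 in control mice), with a median of 0.76 in STZ mice and 0.64 in control mice, and each cytosolic gene that was at least 2-fold higher in either pair was on this list. The other 8 cytosolic genes (Dars, Farsa, Farsb, Hars, Kars, Qars, Rars and Vars) had medians of 0.15 in STZ mice and 0.41 in control mice. Wars, the tryptophanyl enzyme, is also induced by interferon gamma. It had 27.97 FPKM in Glut2L STZ, 25.3 in Glut2H STZ, 40.6 in Glut2L control and 26.2 in Glut2H control. Any part of immune cells in these values was not tested. Of 30 other genes of the ATF4 pathway, 11 were higher by 2-fold or more and 3 lower in Glut2L than in Glut2H in STZ mice (median 0.73), beside 22.9% and 17.8% of all genes, and 13 higher and 2 lower of 29 measured in control mice (median 0.90), beside 19.7% and 18.5%. Pycr1, an enzyme of proline synthesis, had 29.9 FPKM in Glut2L STZ, 7.57 in Glut2H STZ, 52.1 in Glut2L control and 11.1 in Glut2H control. Atf4 itself had 243 FPKM in Glut2L STZ, 143 in Glut2H STZ, 259 in Glut2L control and 128 in Glut2H control. Slc7a11, the cystine transporter, ran the other way, at 6.61 FPKM in Glut2L STZ, 30.2 in Glut2H STZ, 6.76 in Glut2L control and 26.5 in Glut2H control. The 4 kinases of eIF2 alpha that act ahead of ATF4 had median gate differences of -0.28 in STZ mice and -0.86 in control mice. Eif2ak3, which encodes PERK, had 19.3 FPKM in Glut2L STZ, 7.01 in Glut2H STZ, 19.8 in Glut2L control and 9.34 in Glut2H control. Eif2ak2, which encodes the interferon-induced kinase PKR, ran the other way, at 9.32 FPKM in Glut2L STZ, 22.0 in Glut2H STZ, 16.1 in Glut2L control and 35.8 in Glut2H control. Eif2ak4, which encodes the kinase GCN2, was also lower in Glut2L in both pairs (-0.57 and -0.81), and Eif2ak1, which encodes the heme-regulated kinase, differed by 0.02 and -0.91.

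ATF4 binds composite elements that join a C/EBP and an ATF core, and the promoters of the members were searched for the letters TGATGNAA on either strand. RefSeq promoter windows (GRCm38.p6, 250 bases before to 50 after the start) were matched for 27 of the 36 members, 13 cytosolic and 14 mitochondrial. The letters were present in 5 of the 13 cytosolic windows and 0 of the 14 mitochondrial ones, and in 3.97% of all 32851 windows. The 5 genes were Aars, Gars, Iars, Tars and Yars, all on the ATF4 list, of which 8 had a window. A match is a run of letters and not a shown binding site. The 30 bases around a match in each gene are given on the strand of the gene, with the match in capitals:
Aars, chr8:111033840-111033869, plus strand: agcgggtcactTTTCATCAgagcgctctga
Gars, chr6:55037960-55037989, plus strand: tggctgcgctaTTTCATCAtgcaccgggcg
Iars, chr13:49682126-49682155, plus strand: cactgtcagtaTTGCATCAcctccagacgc
Tars, chr15:11399655-11399684, minus strand: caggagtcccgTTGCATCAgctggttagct
Yars, chr4:129189895-129189924, plus strand: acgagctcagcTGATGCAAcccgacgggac

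The matches of Iars and Tars read TTGCATCA, and that of Yars reads TGATGCAA, the same letters on the opposite strand. Counted from the start of transcription, they begin at base 8 in Iars, -15 in Tars and 4 in Yars. Tars, the threonyl enzyme, had 59.0 FPKM in Glut2L STZ, 34.6 in Glut2H STZ, 63.4 in Glut2L control and 49.4 in Glut2H control. Yars, the tyrosyl enzyme, had 119 FPKM in Glut2L STZ, 70.0 in Glut2H STZ, 89.9 in Glut2L control and 75.7 in Glut2H control. The match printed for Aars and that of Gars read TTTCATCA, at bases 10 and -30. Gate differences of Aars, Gars, Iars, Tars and Yars were 1.32, 1.21, 1.79, 0.75 and 0.76 in STZ mice, beside a cytosolic median of 0.56. In control mice they were 0.63, 1.10, 0.02, 0.35 and 0.24, beside 0.56. Sars, the most abundant member, had no match in its window, with gate differences of 1.21 and 1.10. Eprs (0.69 and 0.68) and Mars (0.65 and 0.47) had none either. Cars, Lars, Nars and Wars of the ATF4 list had no window. Any link between a match and a gate difference was not tested.

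Several cytosolic synthetases sit together with scaffold proteins in the multi-synthetase complex. The 8 synthetase genes of that complex (Dars, Eprs, Iars, Kars, Lars, Mars, Qars and Rars) had a median gate difference of 0.56 in STZ mice and 0.48 in control mice, and the 12 cytosolic genes outside it one of 0.49 and 0.62. Of the 3 scaffold genes, Aimp1 was higher in Glut2L in both pairs (0.13 and 0.15) and the others were lower. Eef1e1, which encodes the scaffold AIMP3, had 8.47 FPKM in Glut2L STZ, 15.7 in Glut2H STZ, 11.6 in Glut2L control and 23.9 in Glut2H control, lower in both libraries labelled Glut2L. Aimp2 had 17.1 FPKM in Glut2L STZ, 19.7 in Glut2H STZ, 9.83 in Glut2L control and 13.0 in Glut2H control. Aimp1 had 30.5 FPKM in Glut2L STZ, 27.9 in Glut2H STZ, 26.9 in Glut2L control and 24.1 in Glut2H control. Synthetases also fall into class I and class II by the fold of their catalytic domain; cytosolic class I genes had medians of 0.31 and 0.47 in STZ and control mice, and cytosolic class II genes 0.57 and 0.57, leaving out Eprs, which joins both classes.

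The mitochondrial genes had no common direction between the gates, and most had fewer than 10 FPKM. Hars2, the histidyl enzyme, had 18.9 FPKM in Glut2L STZ, 8.79 in Glut2H STZ, 15.6 in Glut2L control and 7.20 in Glut2H control, higher in the library labelled Glut2L by 1.02 in both pairs. Yars2, the tyrosyl enzyme, ran the other way, with 5.03 FPKM in Glut2L STZ, 9.24 in Glut2H STZ, 10.4 in Glut2L control and 21.7 in Glut2H control. Nars2, the asparaginyl enzyme, had 3.35 FPKM in Glut2L STZ, 1.79 in Glut2H STZ, 6.89 in Glut2L control and 1.61 in Glut2H control. Vars2, the valyl enzyme (ENSMUSG00000038838, chromosome 17, 35655634 to 35667592), had 7.11 FPKM in Glut2L STZ, 6.24 in Glut2H STZ, 11.5 in Glut2L control and 0.671 in Glut2H control, so the Glut2H control library alone set its gate difference of 2.90 in control mice and its STZ difference of 2.12 in Glut2H. Mitochondrial ribosomal protein genes, 76 in all, had median gate differences of 0.29 in STZ mice and 0.20 in control mice.

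Setting STZ against control in the same gate compares sorted libraries of STZ mice with those of vehicle mice. Marker sums of other cell types also differed in the Glut2L pair, as given below, and their part in these differences was not tested. Apart from Lars2, few synthetase genes reached a 2-fold difference. The cytosolic median, STZ minus control, was -0.08 in Glut2L and -0.10 in Glut2H, beside 0.00 and -0.07 over all genes measured (15602 and 15558), and the mitochondrial median was 0.09 in Glut2L and 0.04 in Glut2H. In Glut2L 5 of 20 cytosolic and 9 of 16 mitochondrial genes lay above 0, where 50.3% of all genes did, and in Glut2H 6 and 8 did, where 45.4% did. In Glut2L, 0 of 20 cytosolic genes were at least 2-fold higher or lower, where 21.2% of all genes were. In Glut2H, 1 of 20, Iars, was, where 23.5% of all genes were. In the same Glut2L pair the acinar markers summed to 425 FPKM in STZ and 3691 in control, with Ptf1a and Amy2a5 listed at 0 in both and Rbpjl in STZ. Alpha cell markers (7 of 7 in the table) summed to 10006 FPKM there in STZ and 4236 in control.

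Single cytosolic genes stood a little apart. Yars, at 119 FPKM in Glut2L STZ and 89.9 in Glut2L control, had the highest STZ difference of the cytosolic set in Glut2L, 0.41, followed by Mars and Aars. Mars, the methionyl enzyme, had 82.2 FPKM in Glut2L STZ, 51.9 in Glut2H STZ, 68.7 in Glut2L control and 49.4 in Glut2H control. Hars, Vars, Wars and Qars were the lowest in Glut2L, between -0.44 and -0.75. Hars, the histidyl enzyme, had 38.7 FPKM in Glut2L STZ, 32.7 in Glut2H STZ, 52.9 in Glut2L control and 31.4 in Glut2H control. Vars, the valyl enzyme, had 26.9 FPKM in Glut2L STZ, 25.8 in Glut2H STZ, 38.2 in Glut2L control and 28.6 in Glut2H control. For Hars, Vars and Wars the Glut2L control library was the highest and the other 3 lay close together.

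Nars, Rars and Dars differed little between STZ and control. Nars, the asparaginyl enzyme, had 114 FPKM in Glut2L STZ, 71.3 in Glut2H STZ, 119.8 in Glut2L control and 75.7 in Glut2H control. Rars, the arginyl enzyme, had 59.9 FPKM in Glut2L STZ, 48.0 in Glut2H STZ, 65.3 in Glut2L control and 49.0 in Glut2H control. Dars, the aspartyl enzyme, had 24.5 FPKM in Glut2L STZ, 17.9 in Glut2H STZ, 26.1 in Glut2L control and 23.3 in Glut2H control. In all 3 genes the Glut2L libraries lay above the Glut2H libraries, and the STZ difference within a gate lay between -0.37 and -0.03 on the log2 scale.

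**Figure D4:**
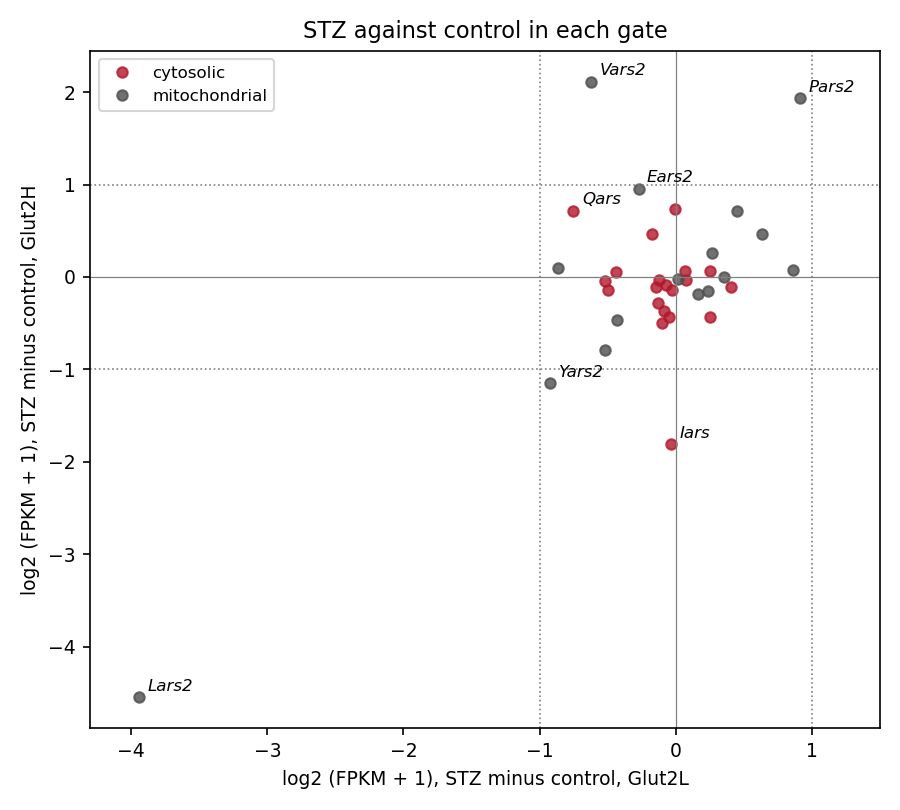
STZ minus control, log2 of FPKM plus 1, in the Glut2L libraries (x axis) and in the Glut2H libraries (y axis) for each synthetase gene, cytosolic in red and mitochondrial in grey; dotted lines mark 2-fold. Lars2 stands alone at -3.94 and -4.55, and Iars, Vars2, Pars2 and Yars2 are the other genes past 2-fold in some gate.

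Lars2, the mitochondrial leucyl-tRNA synthetase (ENSMUSG00000035202, chromosome 9, 123366927 to 123462666), had 1.74 FPKM in Glut2L STZ, 6.30 in Glut2H STZ, 41.2 in Glut2L control and 169 in Glut2H control. Both STZ libraries lay below both control libraries, by 23.6-fold in Glut2L and 26.9-fold in Glut2H, and within each treatment the library labelled Glut2L was the lower. The deposited intervals, between 0.388 and 3.07 FPKM in Glut2L STZ and between 18.3 and 64.1 in Glut2L control, did not overlap, nor did those of 1.24 to 11.8 in Glut2H STZ and 31.9 to 308 in Glut2H control. Lars2 was the only synthetase of which this held, where 0.731% of all genes in Glut2L and 1.03% in Glut2H were at least 2-fold different with intervals that did not overlap. Taking 8-fold as a mark, chosen after the values were seen, 33 of 13427 genes (0.246%) were at least that much lower after STZ in both gates, and Lars2 was among them. Only 3 of the 33 were protein-coding, Lars2 included, and most others were small RNA genes listed at 0 in both STZ libraries. Its share of the summed mitochondrial FPKM was 1.71% in Glut2L STZ, 6.52% in Glut2H STZ, 28.5% in Glut2L control and 65.5% in Glut2H control. In the Glut2H pair the acinar markers summed to 4929 FPKM in STZ and 4686 in control, and the beta cell markers to 67526 in STZ and 71422 in control. Summed levels of the sets therefore turn on it: the cytosolic sum was 3.80 times the mitochondrial sum in Glut2H control, and 11.02 times without Lars2.

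The Lars2 transcript shares sequence with other transcripts. Its main transcript, of 3894 bases, was compared with all GENCODE M21 transcripts by BLAST at an E value of at most 1e-10. Within its 3′ untranslated region, bases 3163 to 3349 (chromosome 9, 123461933 to 123462119) aligned to AA474408, a transcript annotated without a known product on chromosome 7, over 196 positions at 80.1% identity. Bases 3278 to 3349 of that stretch aligned to Gm15564, an antisense transcript on chromosome 16, over 72 positions at 98.6% identity. None of the 9 Lars2 transcripts aligned to any of the 37 mitochondrial transcripts at that threshold, mt-Rnr1 and mt-Rnr2 included. AA474408 had 1.12 FPKM in Glut2L STZ, 1.62 in Glut2H STZ, 1.06 in Glut2L control and 10.3 in Glut2H control. Gm15564 was listed at 0 in Glut2L STZ, Glut2H STZ and Glut2L control and had 24.9 FPKM in Glut2H control. All 3 rows were thus highest in Glut2H control. Outside that library AA474408 and Gm15564 lay at or near the floor, so their order there cannot be set against that of Lars2. Genomic sequence outside the annotated transcripts was not compared. The part of shared sequence in the Lars2 value was not tested.

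**Figure D5:**
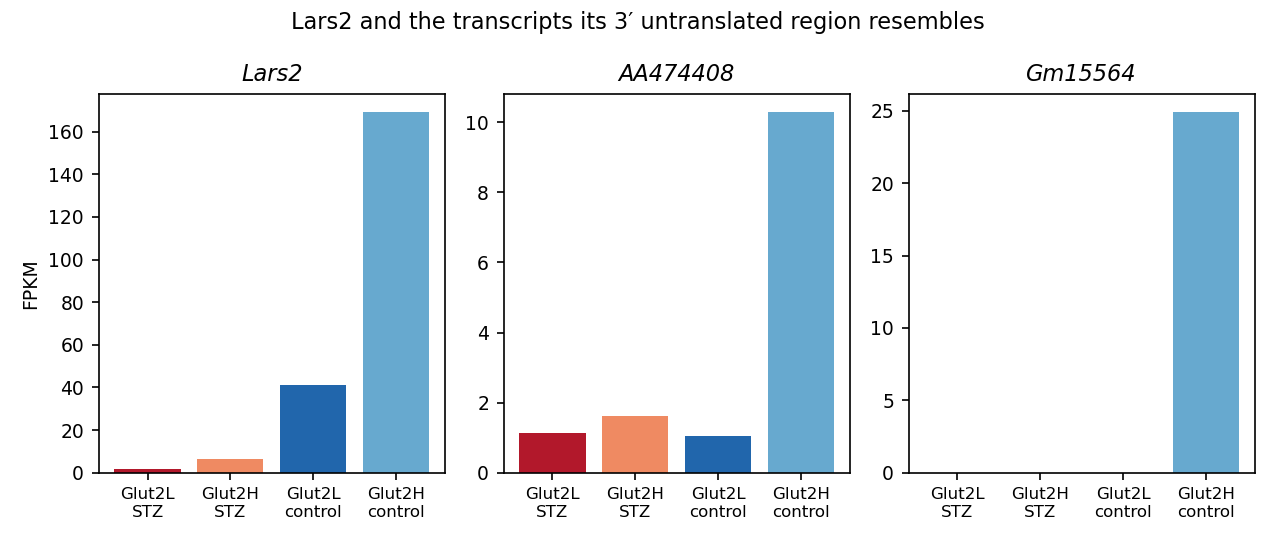
FPKM (linear axes that start at 0, each with its own range) of Lars2, AA474408 and Gm15564 in the 4 libraries, 1 bar per library. Each is highest in Glut2H control. Lars2 has 41.2 FPKM in Glut2L control, where AA474408, at 1.06, and Gm15564, listed at 0, are near the floor.

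The mitochondrial rRNA itself gives no check, since all 37 rows of mitochondrial genes were listed at 0 in every library. Gm20594, a nuclear gene on chromosome 6 whose transcript aligned to mt-Rnr2 over 435 positions at 88.5% identity, took 4.15% of the summed FPKM in Glut2L STZ, 68.5% in Glut2H STZ, 3.86% in Glut2L control and 61.0% in Glut2H control. The share of Gm20594 thus stood high in both Glut2H libraries. Lars2 was also higher in Glut2H than in Glut2L within each treatment, and was higher in both control libraries than in either STZ library. Any link between these rows was not tested.

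Other mitochondrial genes differed between STZ and control by smaller amounts. Pars2, the prolyl enzyme, had 4.05 FPKM in Glut2L STZ, 8.09 in Glut2H STZ, 1.67 in Glut2L control and 1.38 in Glut2H control, higher in both STZ libraries (0.92 in Glut2L and 1.93 in Glut2H). Yars2 was lower in both (-0.92 and -1.15). Fars2, the phenylalanyl enzyme, had 7.32 FPKM in Glut2L STZ, 6.21 in Glut2H STZ, 3.58 in Glut2L control and 5.86 in Glut2H control. Sars2 had 4.02 FPKM in Glut2L STZ, 3.83 in Glut2H STZ, 2.23 in Glut2L control and 2.50 in Glut2H control. Tars2 had 5.89 FPKM in Glut2L STZ, 3.66 in Glut2H STZ, 8.89 in Glut2L control and 7.06 in Glut2H control. Both STZ libraries lay below both control libraries for 4 of 16 mitochondrial and 2 of 20 cytosolic genes, where 11.6% of all genes did. Counting Lars2, 1 mitochondrial gene was at least 2-fold lower and 0 higher in Glut2L, where 11.1% and 10.2% of all genes were, and 2 were lower and 2 higher in Glut2H, where 13.8% and 9.62% were.

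The remaining mitochondrial genes stayed low in every library. Iars2 had between 7.87 and 9.95 FPKM, Cars2 between 3.42 and 6.10, Ears2 between 1.98 and 4.79, and Aars2 between 2.02 and 4.23. Mars2 had between 1.30 and 2.31 FPKM and Wars2 between 1.11 and 2.78. At such levels the deposited intervals are wide: that of Ears2 ran between 0 and 12.1 FPKM in Glut2H STZ, its highest library. The difference between the gates in the STZ effect had a median of 0.06 over the cytosolic genes and 0.10 over the mitochondrial ones, beside 0.05 over all 13427 genes measured in both gates. It lay above 0 for 12 of 20 cytosolic and 11 of 16 mitochondrial genes, beside 52.5% of all genes. It was at least 2-fold for 2 cytosolic genes, Iars (1.77) and Qars (-1.47), and for 3 mitochondrial ones, Vars2 (-2.74), Pars2 (-1.02) and Ears2 (-1.23), where 27.1% of all genes were past 2-fold.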

How the data were processed

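The deposited table holds FPKM per gene, with interval bounds of unstated level and a status, in 1 library per group. Per the submitters' processing notes the authors used TopHat2, SAMtools and Cuffdiff with GRCm38 (mm10); the sources used here do not give versions or settings. Per the labels' protocols, libraries were made from total RNA with a stranded kit after rRNA depletion. FPKM does not keep the depth, and the highly abundant Gm20594 row enters its scaling in a way the sources used here do not describe. The single-sample tables held the same FPKM, with 0 of 156680 values differing.

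Differences are log2 ratios of FPKM plus a pseudocount of 1, which understates differences of low genes, for genes that reached 1 FPKM in 1 of the compared libraries and had an OK status in each. A gene counts as higher or lower from 2-fold on that scale. The 2-fold calls were tested on simulated data in which the changes were set wider than 2-fold. That checks the calculation and not how reliable a call is in these libraries. All members are accounted for; those given in every library were the dual-compartment genes, those with no partner, Lars2, and the 4 (cytosolic) or 3 (mitochondrial) highest and lowest per comparison, with others added. From each other list the 2 highest and lowest genes could be named, and Atf4, Aimp1 and the genes of the tRNA maturation list were added. The members and lists were chosen with earlier results of these data known. Python 3.11.15, pandas 2.3.3, NumPy 2.4.6, matplotlib 3.10.9 and BLAST+ 2.17.0 were used, with GENCODE M21 for coordinates and transcripts. Alternatives were other pseudocounts, filters, scalings and set make-ups, and a rule on the intervals. A further promoter match is not reported here.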

Additional observations from a re-analysis of the deposited data

Results flagged for a closer look

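Qars differed in direction between the gates: STZ minus control was -0.75 in Glut2L and 0.72 in Glut2H on the log2 scale. Put the other way, its difference between the gates, Glut2L minus Glut2H, was -0.77 in STZ mice and 0.70 in control mice. Vars2 also moved in opposite directions, with STZ minus control at -0.62 in Glut2L and 2.12 in Glut2H, where its Glut2H control value of 0.671 FPKM is the lowest of all members. Each group is 1 library, and these differences between gates were not tested.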

How the results depend on the processing

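Of 252 alternative values for 26 results, 216 kept their direction within 1.5-fold, 28 moved by more than 1.5-fold and 8 changed sign. For a median, 1.5-fold is a shift on the log2 scale. That exceeds every set median between gates or treatments, so these could change severalfold and still count as kept. The cytosolic STZ median in Glut2H did so, from -0.098 to -0.32 with an equal FPKM sum. The single-sample tables, which hold the same values, gave 26 of the 216. With all genes centred on a median log2 ratio of 0, the mitochondrial median between the gates became -0.16 in STZ mice and -0.032 in control mice, the cytosolic genes at least 2-fold different numbered 3 and 0 (5 and 3 as deposited), and the cytosolic median of the STZ effect, Glut2L minus Glut2H, became -0.015. With an equal FPKM sum, the medians between the gates were 1.67 and 1.11 in STZ mice and 1.36 and 0.77 in control mice for the cytosolic and mitochondrial sets. The cytosolic count then was 17 in each pair and the mitochondrial count 9 in STZ mice (2 as deposited). The share of all genes past 2-fold was not computed for any alternative scaling, so these counts have no background beside them. With an equal FPKM sum the median of all genes was itself 1.18 in STZ mice and 0.87 in control mice. The STZ medians under that scaling were 0.0021 for the cytosolic set in Glut2L and -0.14 for the mitochondrial set in Glut2H, and 2 mitochondrial genes were at least 2-fold different in Glut2L. An equal sum without the 20 highest rows left 1 mitochondrial gene 2-fold different between the gates in STZ mice.

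Low values limited the mitochondrial set. With a pseudocount of 5 FPKM its count was 0 between the gates in STZ mice, 2 in control mice and 2 for STZ in Glut2H (4 as deposited in each of the last), and with 0.1 FPKM it was 5 for STZ in Glut2L (1 as deposited). Among genes of at least 5 FPKM its STZ median became -0.25 in Glut2L and -0.018 in Glut2H, the cytosolic minus mitochondrial difference in Glut2L became 0.17, and the log2 ratio of the set medians was 3.04 in Glut2L STZ, 2.09 in Glut2H STZ, 2.59 in Glut2L control and 2.20 in Glut2H control. Summed FPKM gave a log2 ratio of 1.92 in Glut2H control. Without Lars2, 1 mitochondrial gene was 2-fold different between the gates in STZ mice and 0 after STZ in Glut2L. Asking also for intervals that do not overlap left 0 genes of either set between the gates, 0 cytosolic genes after STZ in Glut2H, and 1 mitochondrial gene there, Lars2. The causes of these moves beyond the construction of each alternative were not tested. No paired analysis was possible because the labels number no replicates and each group has 1 library, so the groups share fewer than 2 replicate numbers.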

Other observations

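Mitochondrial tRNAs are trimmed and modified before a synthetase charges them, and a list of 12 genes of that step was read alongside the synthetases. Like the other lists, it was written with earlier results of these data known. The STZ effect in Glut2L minus that in Glut2H had a median of 1.33 over the 12, beside 0.05 over all genes. On that measure 7 of the 12 were at least 2-fold higher, where 14.6% of all genes were. This median was the highest of any list read. It was 0.04 over 13 genes of mitochondrial translation factors and amidotransferase, 0.14 over 76 mitochondrial ribosomal protein genes and -0.57 over 5 tRNA editing and synthetase-related genes. Gtpbp3, which modifies the wobble uridine of mitochondrial tRNAs, had 14.95 FPKM in Glut2L STZ, 4.12 in Glut2H STZ, 4.57 in Glut2L control and 15.3 in Glut2H control. Mto1, its partner in that modification, had 15.1 FPKM in Glut2L STZ, 3.85 in Glut2H STZ, 14.1 in Glut2L control and 9.84 in Glut2H control. Trnt1, which adds the CCA end to tRNAs of both compartments, had 33.9 FPKM in Glut2L STZ, 12.8 in Glut2H STZ, 13.5 in Glut2L control and 17.2 in Glut2H control. Nsun3, a methyltransferase of mitochondrial methionine tRNA, had 20.6 FPKM in Glut2L STZ, 10.5 in Glut2H STZ, 1.70 in Glut2L control and 7.36 in Glut2H control. Trmu, which thiolates the same wobble uridine, had 9.48 FPKM in Glut2L STZ, 2.22 in Glut2H STZ, 22.4 in Glut2L control and 18.0 in Glut2H control. These 5 were chosen after their values were seen. Over the whole list 10 of 12 genes were higher in Glut2L than in Glut2H in STZ mice, beside 58.7% of all genes. In control mice 4 of 12 were, beside 55.9%. Hsd17b10 and Trmt5 were lower in Glut2L in both, by log2 differences of -0.71 and -0.19 in STZ mice.

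Proteins that act beside the synthetases also varied between libraries. Aarsd1, an alanyl-tRNA editing protein, had 4.00 FPKM in Glut2L STZ, 11.1 in Glut2H STZ, 11.7 in Glut2L control and 4.46 in Glut2H control, so its gate order was opposite in STZ and control mice, as that of Qars was. Tarsl2, a further threonyl-tRNA synthetase of the cytosol that is not among the 20, had 4.56 FPKM in Glut2L STZ, 1.29 in Glut2H STZ, 6.60 in Glut2L control and 0.736 in Glut2H control, higher in both libraries labelled Glut2L. These differences were not tested.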
